A study of Mus musculus with 20 samples.

Results

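Tcim (transcriptional and immune response regulator, also known as TC1) was chosen by its level in C2C12 myotubes exposed to 1000 µM hydrogen peroxide, where its difference from untreated myotubes was among the largest on the array. It was measured by 1 probe set, the only one of 22690 on the array whose sole gene symbol was Tcim, and it is 1 of 12394 genes that the array names in this way. C2C12 is an established mouse myoblast line that fuses into multinucleated myotubes when serum is withdrawn. All cultures were differentiated for 96 h and then kept for 2 h in medium with 0.5% horse serum containing 0, 1, 10, 100 or 1000 µM H2O2. Each dose had 4 arrays (Affymetrix Mouse Genome 430A, total RNA), 20 in all, with the untreated cultures as the control. The replicates are described as independent without mention of separate cultures, so the errors and p-values below measure the spread between these samples, part of which may be technical. A single cell line was used, 1 time point was sampled, and RNA came from the whole culture, so cells that had not fused contributed to it.

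TCIM is a small, largely unstructured protein. It binds Chibby (CBY1), a nuclear protein that keeps β-catenin from its TCF and LEF partners, and in this way it can release β-catenin-dependent transcription downstream of Wnt. In endothelial cells it has been described as raising the expression of NF-κB target genes, and in other cells as responding to heat shock and to growth-promoting signals. The protein has also been described as a partner of NOTCH2. These properties set the gene groups described after Tcim itself: the Wnt and β-catenin pathway, NF-κB, heat shock, immediate early genes and Notch.

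The deposited signals of the 20 arrays had nearly the same trimmed mean, 500.1 to 500.2, and their median signals ran from 150.9 to 185.1. No pair of arrays held identical values. The first principal component carried 28.2% of the variance. Deviations from the dose mean correlated at 0.462 to 0.514 between arrays numbered 1, and at -0.388 to 0.325 between arrays of different numbers. The 10 µM array without a number was left out of these correlations and is otherwise grouped with the arrays numbered 1. Results that rest on the arrays numbered 1 are given with and without them. On this scale the mean of the array medians (log2 signal of all probe sets) at 1000 µM differed from that of the untreated arrays by -0.203, and changes at 1000 µM are to be read against that shift. Of 19 myotube markers, all 19 passed the filter on low signals, and 1, Tnnt3 (a fast troponin), was called higher at 1000 µM. Their summed signal per array was 116840 to 142860 in untreated myotubes, 146610 to 152100 at 1 µM, 136390 to 178080 at 10 µM, 135680 to 157330 at 100 µM and 148380 to 160140 at 1000 µM. The untreated arrays thus lay below those at 1 µM and at 1000 µM without overlap, and the part of this in the results was not tested. Of 9 fibroblast markers on the array, Thy1 and Lum were under the filter level on all 20 arrays. None of the 7 tested was called, and sums over all 9 were 14760 to 32049. Of 8 endothelial markers, 7 (Pecam1, Cdh5, Tek, Emcn, Vwf, Tie1 and Sele) were under that level on all 20 arrays, and 0 passed the filter. Of 8 leukocyte markers, 5 (Ptprc, Cd68, Itgam, Cd3e and Cd79a) were under it on all 20 arrays. Only 1 leukocyte marker passed the filter, and it was not called at any dose.

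Tcim was expressed at a low level in untreated myotubes and at a high level at 1000 µM. The deposited Tcim signals, in arbitrary units, were 75.4, 152.3, 134.6 and 161.5 on untreated arrays 1 to 4. At 1 µM they were 122.5, 87.3, 90.8 and 103.7. At 10 µM they were 140.4 on the array without a number and 104.9, 152.8 and 119.8 on arrays 2 to 4. These 3 groups overlapped, and the lowest value among them came from untreated array 1. At 100 µM the signals were 423.3, 235.6, 310.8 and 198.7. At 1000 µM they were 1004.6, 1648.4, 1536.3 and 1576.3. All 4 arrays at 100 µM lay above all 12 arrays at the lower doses, and all 4 at 1000 µM lay above every other array. Array 1 was the highest of its group at 100 µM and the lowest at 1000 µM. Tcim was at or above the filter level, the 40th percentile of signal on the array, on 18 of 20 arrays: 3 of 4 untreated, 3 of 4 at 1 µM, and all 4 at each of the other doses. With RNA from whole cultures, more Tcim RNA per cell and a larger share of cells that express it cannot be told apart.

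**Figure D1:**
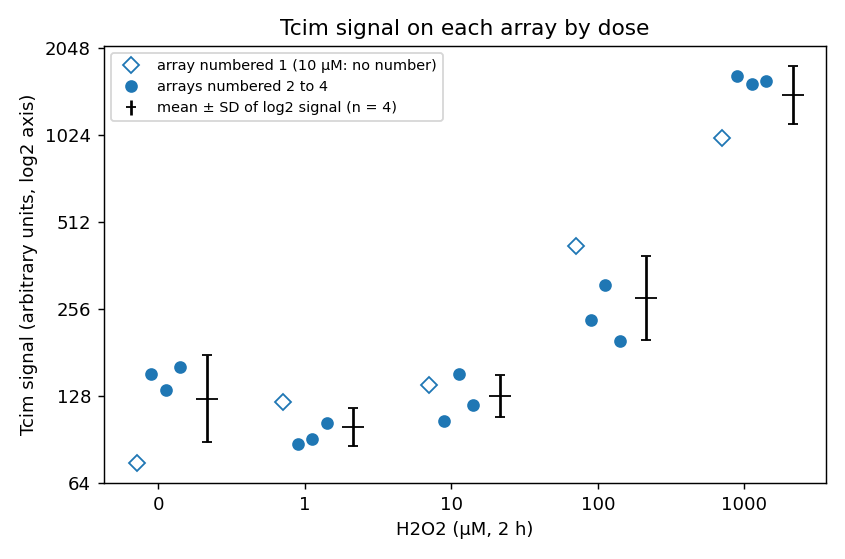
Tcim signal (arbitrary units, log2 axis) on each of the 20 arrays against H2O2 dose (µM, 2 h). Diamonds are the arrays numbered 1 (at 10 µM the array without a number), circles are arrays 2 to 4, and bars give the mean and SD of the log2 signal (n = 4). The 4 arrays at 1000 µM, between 1004.6 and 1648.4, lie above all others, and the 4 at 100 µM, between 198.7 and 423.3, lie above all arrays at 0 to 10 µM.

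In order of level, the mean Tcim signal was 101 ± 15.9 at 1 µM, 129 ± 21.3 at 10 µM, 131 ± 38.7 in untreated myotubes, 292 ± 99.1 at 100 µM and 1441 ± 295 at 1000 µM (SD, n = 4 each). The first 3 overlapped, and each of the last 2 lay above all groups before it without overlap. On the log2 scale the group means were 6.65 ± 0.22 at 1 µM, 7.00 ± 0.24 at 10 µM, 6.97 ± 0.50 in untreated myotubes, 8.13 ± 0.48 at 100 µM and 10.47 ± 0.33 at 1000 µM. The relative spread of the signal, its coefficient of variation, was 29.5% in untreated myotubes, 15.8% at 1 µM, 16.5% at 10 µM, 33.9% at 100 µM and 20.5% at 1000 µM.

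The difference between 1000 µM and untreated myotubes is a description and carries no test, because the gene was selected on it. Tcim was higher by 3.49 ± 0.24 on the log2 scale (standard error, 95% interval 2.99 to 3.99), which is 11.3-fold, and it was higher in 16 of 16 pairs of arrays. At 100 µM the difference was 1.16 ± 0.24 (0.65 to 1.66), or 2.23-fold, again in 16 of 16 pairs. Tcim ranked 2 of 8159 measured genes by the size of the difference at 1000 µM and 25 at 100 µM. At 1 µM the difference was -0.33 ± 0.24 (-0.83 to 0.17), with 4 of 16 pairs higher, and at 10 µM it was 0.03 ± 0.24 (-0.47 to 0.53), with 7 of 16 pairs higher. All 4 differences use the same untreated arrays. From 100 to 1000 µM Tcim was higher by 2.34 ± 0.24, or 5.05-fold, rank 2 of 8159 genes. On the log2 scale this step was larger than the one from untreated to 100 µM over all arrays and in arrays 2 to 4 (2.70 against 0.71), and smaller between the arrays numbered 1 (1.25 against 2.49).

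Tcim did not have the largest difference at 1000 µM. Ahead of it stood 2610528A11Rik, at 3.55 ± 0.64, for which none of the 4 untreated arrays reached the filter level. Behind it stood Atf3 (a stress-induced transcription factor) at 3.31 ± 0.44, Cxcl1 (a neutrophil-attracting chemokine) at 3.27 ± 0.53, Fosb (a component of AP-1) at 3.01 ± 0.27 and Gzmm (a granzyme) at 2.63 ± 0.51. For Cxcl1, Fosb and Gzmm, too, none of the 4 untreated arrays reached that level, and for Atf3 1 of 4 did, against 3 of 4 for Tcim. The rank of Tcim ran from 1 to 4 over 28 other settings. It was 1 with a pseudocount of 32, without untreated array 2 and without 1000 µM array 1. It was 3 in arrays 2 to 4 alone and with array weights, and 4 without untreated array 1.

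Comparisons whose differences use neither the untreated nor the 1000 µM arrays, on which Tcim was chosen, were tested. Their limma errors and p-values come from the fit of all dose groups, so the untreated and 1000 µM arrays enter the spread. The limma tests are therefore not fully independent of the choice of Tcim. The exact permutation tests use only the arrays compared. Tcim was also chosen with earlier results of these data known. Tcim rose between 1 and 100 µM, by 1.48 ± 0.24 on the log2 scale (95% interval 0.98 to 1.98, 2.80-fold; limma adjusted p = 0.00122). All 16 pairs of arrays were higher at 100 µM, and an exact permutation test of this gene alone gave a two-sided p of 0.0286, the smallest that 4 against 4 arrays (70 assignments) allow, or 0.0429 adjusted over the 3 comparisons. Over all 14379 probe sets tested, 1.56% were called between these doses at an adjusted p under 0.05, and 1.24% were called higher at 100 µM. The call held under each of the other settings run.

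Tcim also rose between 10 and 100 µM, by 1.13 ± 0.24 (0.63 to 1.63, 2.19-fold; limma adjusted p = 0.0196; higher in 16 of 16 pairs, exact permutation p = 0.0286, adjusted 0.0429). Of all probe sets, 0.932% were called here and 0.772% were called higher. Both comparisons share the 100 µM arrays and are not separate evidence. The call between 10 and 100 µM was lost after quantile normalization (1.10, limma adjusted p = 0.0603) and without any 1 of 4 arrays: 10 µM array 2 (1.03, adjusted p = 0.0895), 10 µM array 4 (1.10, adjusted p = 0.067), 100 µM array 1 (0.93, adjusted p = 0.101) or 100 µM array 3 (1.08, adjusted p = 0.0641).

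Between 1 and 10 µM the Tcim difference was 0.36 ± 0.24 (-0.15 to 0.86) and was not called (limma adjusted p = 1; exact permutation p = 0.114, adjusted 0.114), although 14 of 16 pairs were higher at 10 µM. No probe set (0%) was called between these doses, and 477 had an unadjusted p under 0.05. The interval includes a rise of up to 0.86, so equal levels were not shown.

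The submitters' own criterion asked for the same direction in every pairing of treated with control arrays and an average change above 1.75-fold, together with detection and change calls that were not used here. By direction and size alone, Tcim met it at 1000 µM against untreated (16 of 16 pairs, mean fold 12.1) and at 100 µM against untreated (16 of 16, 2.44). It also met it at 100 against 1 µM (2.94) and at 100 against 10 µM (2.30), and did not meet it at 10 against 1 µM (14 of 16, 1.30).

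The arrays numbered 1 gave other Tcim differences from the rest at every dose below 1000 µM. Within arrays 2 to 4 the difference from untreated was -0.67 at 1 µM, -0.26 at 10 µM, 0.71 at 100 µM and 3.41 at 1000 µM. Between the single arrays numbered 1, with no replicate, it was 0.70, 0.90, 2.49 and 3.74 at the same doses. Untreated array 1, at a signal of 75.4, was the lowest of all 20 arrays, and the other 3 untreated arrays ranged from 134.6 to 161.5. Within arrays 2 to 4 the 1 µM signals, 87.3 to 103.7, all lay below the untreated ones, whereas with array 1 included the groups overlapped. The sign at 1 and 10 µM thus differed between the arrays, and the value at 100 µM against untreated moved by over 1.5 times. The 1000 µM difference was close in both sets. The tested comparisons kept their direction in both: 1.38 in arrays 2 to 4 and 1.79 between the arrays numbered 1 for 100 against 1 µM, 0.97 and 1.59 for 100 against 10 µM, and 0.41 and 0.20 for 10 against 1 µM. The part of array number in the low-dose values was not tested.

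**Figure D2:**
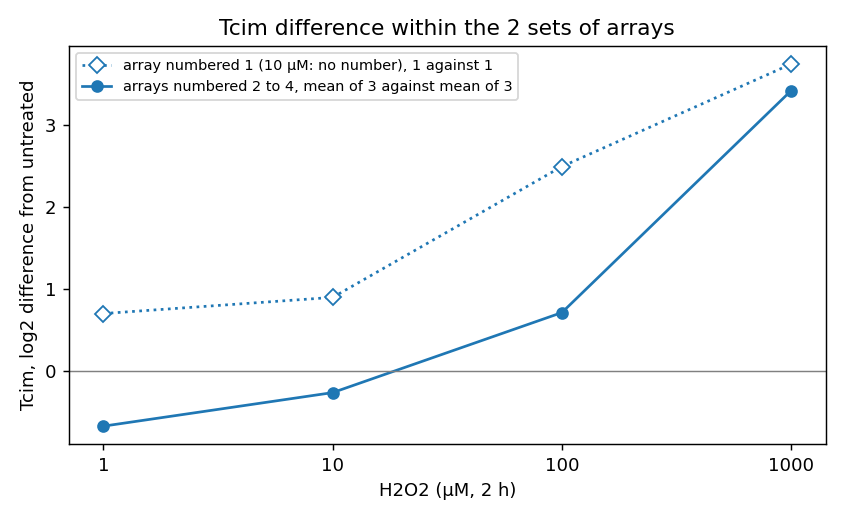
Tcim log2 difference from untreated myotubes against H2O2 dose (µM), in arrays 2 to 4 (filled circles, mean of 3 against mean of 3) and between the single arrays numbered 1 (open diamonds, 1 against 1). The lines run from -0.67 and 0.70 at 1 µM to 3.41 and 3.74 at 1000 µM, and lie farthest apart at 100 µM, at 0.71 and 2.49.

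The genes whose values lay nearest to those of Tcim were found by the root mean square difference over the 20 arrays. Each gene was taken as log2 signal minus its own untreated mean. Since the measure uses every array, it is a description with no test. It also weighs the size of the difference at 1000 µM, on which Tcim was chosen. By that difference the 10 genes ranked from 3 (Atf3) to 13 (Nr4a1), so the list largely holds the genes with the largest rises. The nearest was Fosb, at 0.56, with differences from untreated of 0.73 ± 0.27 at 100 µM and 3.01 ± 0.27 at 1000 µM. Ccl2 (a monocyte-attracting chemokine) followed at 0.77, with 1.84 and 2.21 at these doses, and Atf3 at 0.77, with 1.98 and 3.31. Both had a larger difference than Tcim at 100 µM. Hspa1a (an inducible HSP70 chaperone) stood at 0.81 and differed by 0.22 at 100 µM and 2.19 at 1000 µM. The other 6 were Rnf225 at 0.83, Nr4a1 (an orphan nuclear receptor) at 0.85, Noct (a circadian phosphatase) at 0.86, Gzmm at 0.90, Fos at 0.92 and Ccl7 (a chemokine) at 0.93. Fos differed by 0.05 at 100 µM and 2.02 at 1000 µM, the smallest 100 µM difference of the 10. The next gene stood at 0.95, so the tenth had no clear gap behind it, and the median over all genes was 1.72. None of the untreated arrays reached the filter level for Fosb, Rnf225, Gzmm or Ccl7, and Ccl2 and Atf3 reached it on 1 of 4. Ranking by correlation over the same arrays kept 4 of the 10, namely Fosb, Hspa1a, Fos and Noct.

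**Figure D3:**
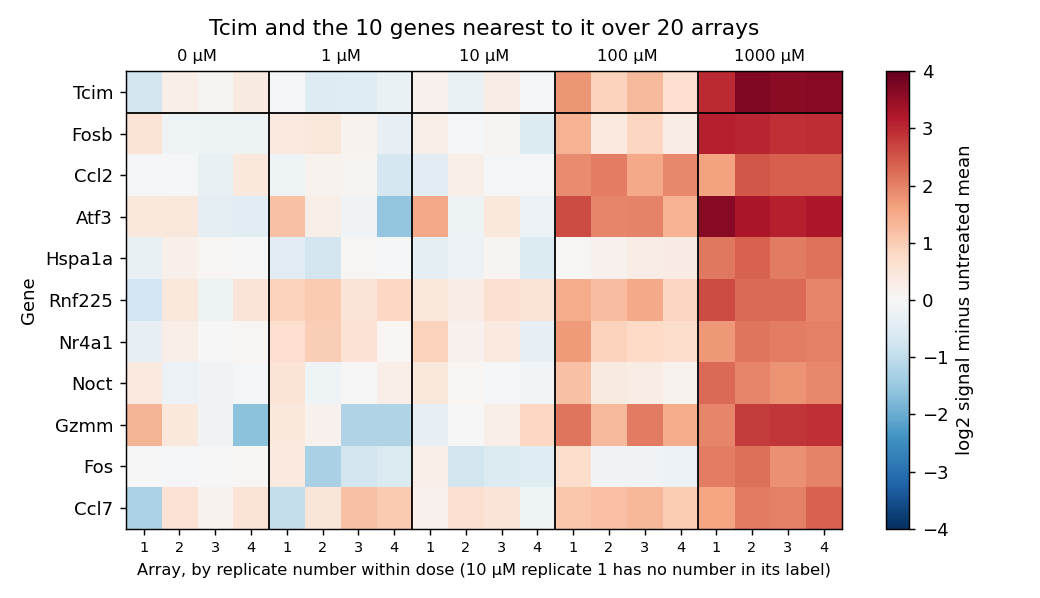
Heat map of log2 signal minus the untreated mean (colour scale) for Tcim (top row) and the 10 genes nearest to it, on each of the 20 arrays ordered by dose and replicate number. Tcim, Atf3 and Fosb are darkest at 1000 µM, Atf3 and Ccl2 are already red at 100 µM, and Hspa1a and Fos are pale there.

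For the pathway lists, 1 probe set stood for each gene, the one of highest mean signal, and a gene was called at a limma adjusted p under 0.05 over all probe sets. At 1 µM 0% of the 8159 genes were called. At 10 µM 0.0123% were, which was 1 gene, Hes1 (a transcriptional repressor and Notch target). At 100 µM 0.993% were called higher and 0.404% lower, and at 1000 µM 2.64% higher and 8.05% lower. The direction of the calls depended on the scaling. The share of called genes that were higher at 1000 µM was 24.7% on the deposited scale, 40.5% after quantile normalization and 86.3% with each array centred on its median. At 100 µM the shares were 71.1%, 79.2% and 91.2%. All list counts share the untreated arrays between doses, and the groups of genes are described beside these shares without a test of any list.

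Of 110 Wnt and β-catenin genes in 6 lists, 100 were on the array and 67 passed the filter. At 100 µM 1 was called, higher: Myc, a growth regulator and β-catenin target, at 0.88 ± 0.12 (limma adjusted p = 0.000244). This was 1.49% of the 67, against 0.993% of all genes. Without untreated array 1, 2 genes were called, both higher (2.99%, against 0.981% of all genes). In arrays 2 to 4 alone 2 were called higher and 2 lower (2.99% each, against 1.51% and 1.25% of all genes). At 1000 µM 4 were called higher and 6 lower (5.97% and 8.96%, against 2.64% and 8.05% of all genes). The share called lower was thus near that of all genes. The median difference was -0.13 over the 67 against -0.05 over all genes. Arrays 2 to 4 alone gave 5 higher and 14 lower (7.46% and 20.9%, against 5.63% and 12.4% of all genes). Quantile normalization gave 3 and 2 (4.48% and 2.99%, against 2.30% and 3.38%). Median centring gave 9 and 1 (13.4% and 1.49%, against 15.6% and 2.48%), so the balance of Wnt calls moved with that of all genes. The lower calls fell to 2 without untreated array 2, to 2 without 1000 µM array 2 and to 3 without 1000 µM array 4. These were 2.99%, 2.99% and 4.48% of the list, against 5.69%, 5.41% and 5.42% of all genes.

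Neither Chibby nor β-catenin was called. Chibby, Cby1, differed by 0.05 ± 0.27 at 100 µM and by -0.04 ± 0.27 at 1000 µM (limma adjusted p = 0.95), and its sign at 1000 µM turned under quantile normalization (0.16) and median centring (0.17), in arrays 2 to 4 (0.13) and without 1000 µM array 1 (0.10). β-catenin, Ctnnb1, differed by 0.05 ± 0.11 at 100 µM and 0.07 ± 0.11 at 1000 µM (limma adjusted p = 0.758). Of its 3 probe sets, none was called and 2 had the opposite sign at 1000 µM, and quantile normalization turned the sign of the first to -0.14. None of the 6 ligand genes tested (of 21) and none of the 3 secreted inhibitors tested (of 10) was called at either dose.

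Among the 10 Wnt receptors and membrane regulators tested, 3 fell at 1000 µM (30%, against 8.05% of all genes). The co-receptor Lrp6 fell by 0.59 ± 0.10 (limma adjusted p = 0.000794), with 1 of its 2 probe sets called. The receptor Fzd3 was at -0.52 ± 0.15 (limma adjusted p = 0.0347), with 1 of its 3 probe sets called. Kremen1, a co-receptor of the DKK inhibitors, was at -0.47 ± 0.14 (limma adjusted p = 0.0398). The Kremen1 call was lost without any 1 of 7 arrays, all but untreated array 3 (adjusted p 0.0633 to 0.114), and the Fzd3 call without untreated array 1, 2 or 3 or 1000 µM array 1, 2 or 4 (adjusted p 0.0544 to 0.0993) and in arrays 2 to 4 alone (-0.48, adjusted p = 0.0657). Fzd3 and Kremen1 were not called under quantile normalization (adjusted p = 0.248 and 0.207) or median centring (0.162 and 0.142).

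Among the regulators of β-catenin and its targets, Axin2, a scaffold of the β-catenin destruction complex that is itself a target, fell by 0.62 ± 0.15 at 1000 µM (limma adjusted p = 0.0101), a call that was lost under quantile normalization (-0.42, adjusted p = 0.0998) and median centring (-0.42, adjusted p = 0.0551). Of the 17 nuclear partners and antagonists tested, Bcl9, a β-catenin coactivator, was at -0.55 ± 0.17 (limma adjusted p = 0.0395). Its call was lost without any 1 array but 1000 µM array 1 (adjusted p 0.0521 to 0.145), and under quantile normalization (adjusted p = 0.306) and median centring (adjusted p = 0.184). Ywhaq, a 14-3-3 protein that retains Chibby in the cytoplasm, was at 0.31 ± 0.08 (limma adjusted p = 0.0194). Only 1 of its 7 probe sets was called higher, another had the opposite sign (-0.34), and the call was lost without untreated array 1 (0.27, adjusted p = 0.0575) and under quantile normalization (0.15, adjusted p = 0.341). Of the 17 β-catenin target genes tested, 3 rose and 2 fell at 1000 µM (17.6% and 11.8%, against 2.64% and 8.05% of all genes). Myc rose by 1.37 ± 0.12 (limma adjusted p = 4.30e-07), Jun (an AP-1 component) by 0.93 ± 0.08 (adjusted p = 5.12e-07) and Birc5 (survivin) by 0.34 ± 0.08 (adjusted p = 0.00823). Met, the hepatocyte growth factor receptor, was at -0.61 ± 0.16 (limma adjusted p = 0.0185) and was not called without untreated array 1 or 2 or 1000 µM array 2 (adjusted p 0.0562 to 0.0704), nor under quantile normalization (adjusted p = 0.137) or median centring (adjusted p = 0.0719). Myc and Jun are also immediate early genes, and Birc5 is also a marker of cycling cells. Of the 9 cycling cell markers tested, Birc5 was the 1 called higher and Mki67 the 1 called lower, at -0.50 ± 0.10 (limma adjusted p = 0.00268).

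**Figure D4:**
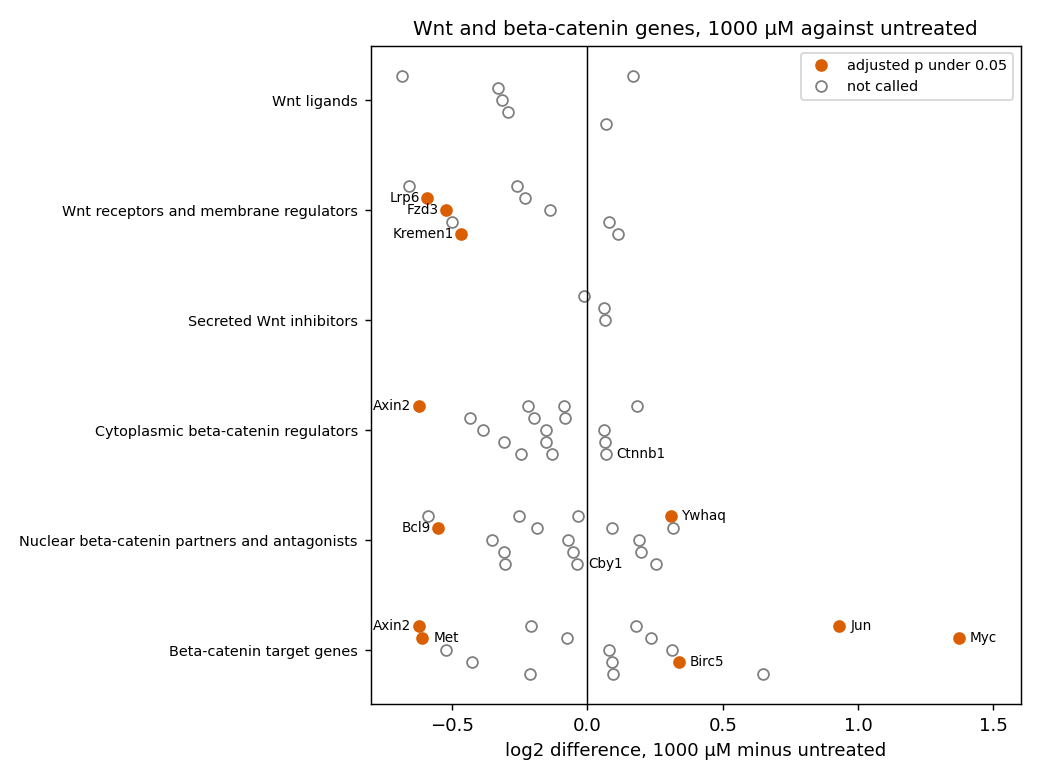
Log2 difference between 1000 µM and untreated myotubes (horizontal axis) for the tested genes of the 6 Wnt and β-catenin lists (rows; vertical offsets within a row only separate points). Filled points are the genes called at an adjusted p under 0.05. Myc at 1.37 and Jun at 0.93 lie farthest right, Cby1 and Ctnnb1 lie near 0, and Axin2, Met and Lrp6 lie near -0.6.

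NF-κB is a family of dimeric transcription factors held in the cytoplasm by IκB proteins, whose genes are among its targets. Of 10 NF-κB subunits, inhibitors and kinases tested, 1 was called. Nfkbia, which encodes IκBα, rose by 0.56 ± 0.11 at 100 µM (limma adjusted p = 0.00692) and by 1.10 ± 0.11 at 1000 µM (adjusted p = 9.95e-07). Of its 4 probe sets, 2 were called at 100 µM, where 1 had the opposite sign (-0.19), and 3 at 1000 µM. The subunit gene Rela stood at 0.24 ± 0.11 at 100 µM and 0.08 ± 0.11 at 1000 µM and was not called.

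Of 23 NF-κB target genes, 12 passed the filter. At 100 µM 2 were called higher and at 1000 µM 6, with none lower, and median differences of 0.44 and 0.63. Some passed the filter only through the treated arrays, as Cxcl1 and Ccl7 did with all 4 untreated arrays under the filter level. Ccl2 reached that level on 1 of 4 untreated arrays. The count over the genes that passed therefore favours higher calls, and the calls of Cxcl1, Ccl7 and Ccl2 are not read as tests. Ccl2 stood at 1.84 ± 0.22 at 100 µM and 2.21 ± 0.22 at 1000 µM. Against these low untreated signals, Cxcl1 stood at 2.10 ± 0.53 at 100 µM and 3.27 ± 0.53 at 1000 µM, and Ccl7 at 1.16 ± 0.43 and 2.01 ± 0.43. Lif (a cytokine of the interleukin 6 family) rose by 1.04 ± 0.17 at 1000 µM (adjusted p = 0.00054) and was at 0.74 ± 0.17 at 100 µM (adjusted p = 0.034), a call that was lost in arrays 2 to 4 (0.49, adjusted p = 0.125) and without untreated array 1, 2 or 3 or 100 µM array 1 or 2 (adjusted p 0.0611 to 0.136). Il6 (interleukin 6) was at 1.31 ± 0.37 at 1000 µM (adjusted p = 0.0289) and was not called without untreated array 1 or 1000 µM array 2, 3 or 4 (adjusted p 0.071 to 0.0892). Without untreated array 1 the Il6 difference was 0.84. With arrays 2 to 4 alone, 7 target genes were called higher and 2 lower at 1000 µM (58.3% and 16.7%, against 5.63% and 12.4% of all genes). These 7 include Cxcl1, Ccl7 and Ccl2, so this share favours higher calls too and is not read as a test.

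Heat shock genes encode the heat shock factors and the chaperones that refold damaged proteins. Of 21 tested, none was called at 100 µM and 7 were called higher at 1000 µM (33.3%, against 2.64% of all genes). The median differences were 0.13 and 0.22. Under median centring 16 were called higher, where 15.6% of all genes were, and under quantile normalization 4, where 2.30% were. Hspa1a rose by 2.19 ± 0.17 at 1000 µM (limma adjusted p = 8.48e-08) and Hspa1b, its near-identical copy, by 1.19 ± 0.15 (adjusted p = 3.27e-05), and probe sets of such copies may share target RNA. Their co-chaperone genes Dnajb4 and Dnajb1 rose by 0.60 ± 0.12 (adjusted p = 0.00218) and 0.50 ± 0.09 (adjusted p = 0.00134). At 100 µM Hspa1a stood at 0.22 ± 0.17 and Hspa1b at -0.28 ± 0.15, where Tcim already stood at 1.16 ± 0.24.

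Immediate early genes are transcribed within minutes of a stimulus without new protein synthesis. Of 39 tested, 10 were called higher at 100 µM (25.6%, against 0.993% of all genes). At 1000 µM 17 were called higher and 2 lower (43.6% and 5.13%, against 2.64% and 8.05%). The median differences were 0.17 and 0.33. The 100 µM count fell to 6 without untreated array 2 or 3, to 5 without untreated array 4 and to 4 without 100 µM array 1 or 2. The share of all genes called higher also fell in these fits. It went from 0.993% to 0.735%, 0.772%, 0.821%, 0.686% and 0.65% in the same order. In arrays 2 to 4 alone 10 were called higher and 4 lower at 100 µM (25.6% and 10.3%, against 1.51% and 1.25% of all genes). At 1000 µM these arrays gave 22 higher and 2 lower (56.4% and 5.13%, against 5.63% and 12.4%). Plk2 (a stress-induced kinase) rose by 0.93 ± 0.09 at 100 µM and 1.07 ± 0.09 at 1000 µM (limma adjusted p = 1.42e-07 at 1000 µM). Btg2 (an antiproliferative gene) rose by 1.19 ± 0.15 and 1.49 ± 0.15 at these doses (limma adjusted p = 9.36e-05 and 2.58e-06). Atf3 stood at 3.31 ± 0.44 at 1000 µM and 1.98 ± 0.44 at 100 µM. It reached the filter level on 1 of 4 untreated arrays, and its calls are not read as tests. The Atf3 call at 100 µM was lost without untreated array 3 or 4 or 100 µM array 1, 2 or 3 (limma adjusted p 0.0604 to 0.111). Nr4a1 rose by 1.99 ± 0.24 at 1000 µM (adjusted p = 1.41e-05) and stood at 1.04 ± 0.24 at 100 µM (adjusted p = 0.0288), where the call was lost in arrays 2 to 4 (0.70, adjusted p = 0.0579) and without untreated array 1, 3 or 4 or 100 µM array 1 or 2 (adjusted p 0.0617 to 0.125). Fos rose by 2.02 ± 0.27 at 1000 µM (adjusted p = 4.70e-05) and was not called at 100 µM. Fosb, 1 of the 17, passed the filter only through treated arrays, and its call at 1000 µM is not read as a test. Ccn1 (a matricellular protein) and Klf2 (a zinc finger transcription factor) fell at 1000 µM, by 1.09 ± 0.20 (adjusted p = 0.00104) and 0.72 ± 0.14 (adjusted p = 0.00258), while Egr1 (a zinc finger transcription factor) stood at -0.18 ± 0.15 and was not called.

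The Notch pathway signals between neighbouring cells through cleaved receptors that switch on repressors of the HES family. Of 11 genes tested, none was called higher at any dose. At 1000 µM 5 were called lower, with a median difference of -0.36, and 1, Hes1, at 100 µM. On the deposited scale this was 45.5% lower at 1000 µM, against 8.05% of all genes, and 9.09% at 100 µM, against 0.404%. Both median centring and quantile normalization left 2 lower (18.2%, against 2.48% and 3.38% of all genes), so the number of calls depended on the scaling. That number was 3 (27.3%) without untreated array 2, 1000 µM array 1 or 1000 µM array 3, against 5.69%, 6.99% and 5.54% of all genes. The coactivator gene Maml1 fell by 0.70 ± 0.11 (limma adjusted p = 0.000237) and the ligand gene Dll1 by 0.65 ± 0.12 (adjusted p = 0.001) at 1000 µM. Of the 2 Maml1 probe sets 1 was called, and the other stood at -0.35. Notch2, whose product is a described partner of TCIM, was at -0.36 ± 0.10 (adjusted p = 0.0296), with 1 of 2 probe sets called. It was not called under median centring (-0.16, adjusted p = 0.39) or quantile normalization (-0.26, adjusted p = 0.23), or without any 1 of 6 arrays: untreated arrays 2, 3 and 4 and 1000 µM arrays 1, 3 and 4 (adjusted p 0.0569 to 0.0943). Notch3 was at -0.37 ± 0.10 (adjusted p = 0.02), with 1 of 2 probe sets called. This call was lost under both scalings (adjusted p 0.0531 and 0.259) and without untreated array 2 or 1000 µM array 1 or 3 (adjusted p 0.0545 to 0.068). Hes1 stood at -0.46 ± 0.09 at 1 µM (limma adjusted p = 0.241, not called) and -0.61 ± 0.09 at 10 µM (adjusted p = 0.0155). It stood at -0.42 ± 0.09 at 100 µM (adjusted p = 0.0172) and -0.36 ± 0.09 at 1000 µM (adjusted p = 0.0115). All these differences use the same untreated arrays, and the 10 µM call was not rerun under the other settings. The Hes1 call at 100 µM was lost under median centring (-0.34, adjusted p = 0.0901) and without untreated array 2 or 4 or 100 µM array 2 or 3 (adjusted p 0.0632 to 0.0777), and that at 1000 µM under median centring (-0.16, adjusted p = 0.243) and quantile normalization (-0.28, adjusted p = 0.0775).

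**Figure D5:**
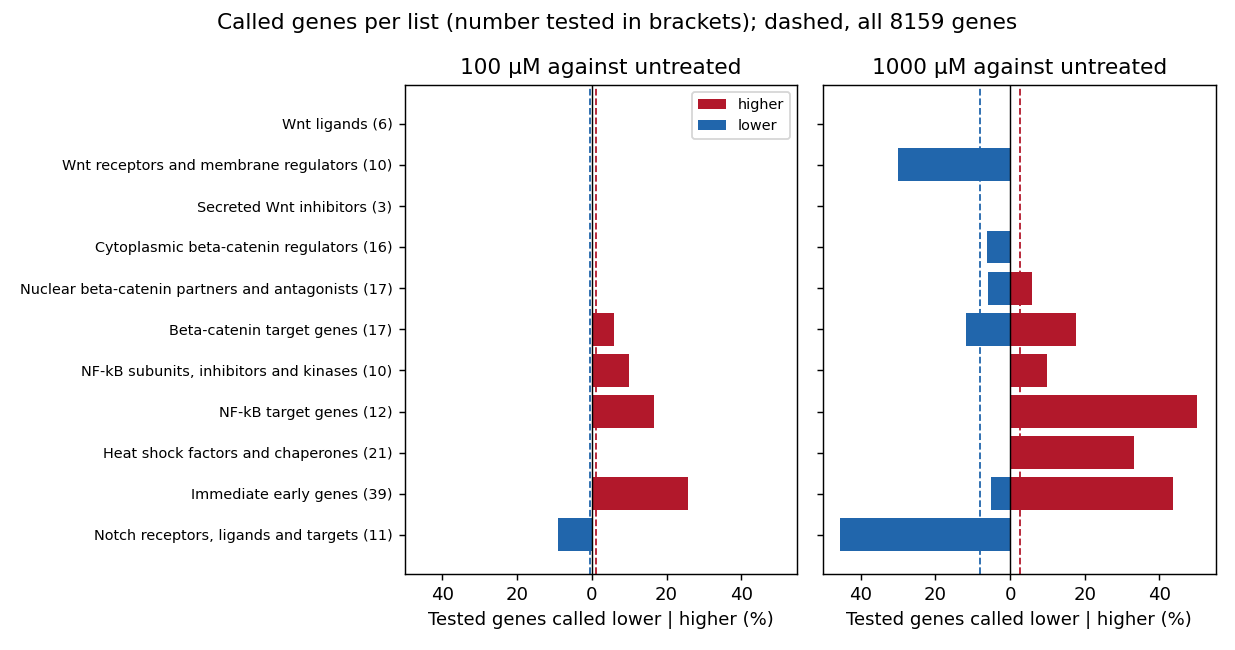
Percentage of tested genes of each list called higher (red, to the right of 0) or lower (blue, to the left) at 100 µM and at 1000 µM against untreated myotubes, with the number tested in brackets. Dashed lines give the shares over all genes, 0.993% higher and 0.404% lower at 100 µM and 2.64% and 8.05% at 1000 µM. NF-κB targets, immediate early and heat shock genes have their bars mainly to the right at 1000 µM and Notch genes to the left. The NF-κB target and immediate early lists hold genes that passed the filter only through treated arrays, which favours higher calls.

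Tcim lies among genes that this array scarcely covered. Of the 10 nearest genes in the RefSeq gene order (assembly GRCm38.p6), 5 on each side, 2 were protein-coding, Ido2 and Ido1, enzymes of tryptophan breakdown, and both were on the array but under the filter. The other 8 were non-coding genes without a probe set. Of the 10 nearest protein-coding genes, a set added after the values were seen, 9 were on the array and 3 were tested. None of the 3 was called at 1000 µM: Gpat4 (glycerolipid synthesis) stood at -0.21 ± 0.13 (limma adjusted p = 0.302), Gins4 (replication) at 0.06 ± 0.09 (adjusted p = 0.734) and Golga7 (protein palmitoylation) at 0.24 ± 0.08 (adjusted p = 0.0516). Sfrp1, a secreted Wnt inhibitor, was also among the 10 and was under the filter.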

How the data were processed

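Total RNA from 20 C2C12 samples was measured on single-colour arrays. Signal intensity values were deposited after processing with MAS5, per the submitters' processing notes, and each array had a trimmed mean near 500.1. Of 22690 probe sets, 20393 had 1 gene symbol, 691 several and 1606 none. Signals (floor 1) were taken to log2, each array scaled to a common 2% trimmed mean, and 14379 probe sets at or above the 40th percentile of their array on at least 4 of 20 arrays were tested with limma 3.58.1 (R 4.3.3; trended eBayes, 5 dose groups, 15 residual degrees of freedom, Benjamini-Hochberg per comparison, threshold 0.05). The scripts were tested on simulated data. Genes and lists were chosen with earlier results of these data known, so they are not independent evidence. Named genes were Tcim, its 5 neighbours in rank, its 10 nearest by root mean square difference, its 10 neighbours on the chromosome, Cby1, Ctnnb1, Notch2 and up to 4 called genes per list and dose with 1 or 2 uncalled ones. Detection calls and the promoter of Tcim were not analysed here. The precision is limited by the 4 arrays per dose.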

Additional observations from a re-analysis of the deposited data

Results flagged for a closer look

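In groups of 4 arrays, 12 of the 185 groups checked over 37 genes held an array whose gap to the nearest other exceeded Dixon's 95% critical share of the group's range. Chance flags about 1 in 20 groups. Of the 12, 8 were arrays numbered 1. Tcim was flagged at 1000 µM, where array 1 was the lowest with a gap of 0.858 of the range.

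Further arrays numbered 1 stood apart for 2610528A11Rik at 10 µM (lowest, 0.850, the array without a number), Ccl2 at 1000 µM (lowest, 0.889), Gzmm at 1000 µM (lowest, 0.866), Fos at 100 µM (highest, 0.894), Lif at 1000 µM (highest, 0.858), Fosb in untreated myotubes (highest, 0.980) and Ywhaq in untreated myotubes (lowest, 0.925). Array 4 stood apart for Bcl9 (lowest, 0.935) and Maml1 (highest, 0.994) in untreated myotubes and for Fzd3 at 100 µM (lowest, 0.919). Array 3 stood apart for Met at 10 µM (lowest, 0.901).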

How the results depend on the processing

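The Tcim rise from 1 to 100 µM kept its call under every setting run (1.243 to 1.649), and the difference from 1 to 10 µM was called under none (0.2706 to 0.4582). The rise from 10 to 100 µM was lost under quantile normalization (1.100) and in 4 of 8 leave-one-out fits, whose values ran from 0.9299 to 1.294. It held with a replicate block (1.201, limma adjusted p = 0.0281), a fit that leaves out the 10 µM array without a number, and in arrays 2 to 4 (0.9739). Residuals of same-numbered arrays correlated at 0.462 to 0.514 for number 1 and 0.010 to 0.261 for numbers 2 to 4, against -0.388 to 0.325 for different numbers. Since not every same-number correlation exceeded 0.1, the number was not taken as a pairing. The main fit holds no term for array number, so the difference of the arrays numbered 1 enters its errors. The replicate block changed no call of Tcim. Tcim at 1000 µM against untreated stayed between 3.187 and 3.696. At 100 µM it moved to 0.7119 in arrays 2 to 4 and 0.7503 with array weights. Wnt genes called at 100 µM numbered 3 with the replicate block, 5 with array number as a term, 4 in arrays 2 to 4, 9 with array weights and 1 to 2 in leave-one-out fits. At 1000 µM they numbered 20, 21, 19 and 29 in the same order, 5 after quantile normalization and 6 to 9 in leave-one-out fits. Over all genes at 100 µM, 81 were called higher and 33 lower. These became 146 and 106 with the replicate block and 180 and 172 with array number as a term. They were 123 and 102 in arrays 2 to 4, and 255 and 274 with array weights. Over all genes at 1000 µM, 215 were called higher and 657 lower, against 512 and 1078 with the replicate block, 459 and 1013 in arrays 2 to 4, 623 and 1197 with array number as a term, 840 and 1579 with array weights and 188 and 276 after quantile normalization. Median centring turned the balance, with 1269 genes (15.6%) higher and 2.48% lower. Between 10 and 100 µM 134 probe sets were called, against 206 with the replicate block, 298 in arrays 2 to 4 and 762 with array weights. Cby1 at 1000 µM turned positive with median centring (0.1653), quantile normalization (0.1572), arrays 2 to 4 (0.1293), array weights (0.07783), and in leave-one-out fits between -0.1558 and 0.1015 (0.006102 without untreated array 3, 0.02348 without 1000 µM array 4). Ctnnb1 turned negative with quantile normalization (-0.1366) and arrays 2 to 4 (-0.0003428). Of 38 named results, 22 kept direction and call under every alternative and 16 did not. Of their 608 alternative values, 518 stayed, 81 lost the call and 9 turned sign. The cause was not tested. Low signals limit Cxcl1, Fosb, Rnf225, Gzmm, Ccl7 and 2610528A11Rik, whose untreated signals were under the filter level. They also limit Ccl2 and Atf3, which reached that level on 1 of 4 untreated arrays.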
